A study of Mus musculus with 10 samples.

Results

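Glucose uptake and glycogen metabolism were followed by 10 genes in RNA-seq libraries of 10 mouse cutaneous tumors. The 10 genes were taken by symbol from the 35275 genes listed in every table, and each symbol was found in all 10 tables. They are 3 facilitative glucose transporters (*Slc2a1*, *Slc2a3* and *Slc2a4*), 2 phosphoglucomutases (*Pgm1* and *Pgm2*), 2 enzymes of glycogen synthesis (*Gys1* and *Gbe1*) and the 3 glycogen phosphorylases (*Pygm*, *Pygl* and *Pygb*). The libraries came from 5 tumors with the genotype LDHA-/- and 5 with the genotype wild type, which the series design describes as 5 mice each, while the study's text gives another number of sequenced tumors. In the study, *Ldha* was deleted by a Cre recombinase that mifepristone or tamoxifen activates in hair follicle stem cells (*K15CrePR* or *Lgr5CreER*). Tumors of both genotypes were raised by genetic alleles or by the chemicals DMBA and TPA, in male and female mice. Treatment began in young adult mice in these models. Which of the models gave the sequenced tumors, and so their age at harvest, is not stated. Cre acts in part of the cells of a tumor, some tumors of the deletion mice were reported to be mosaic, and the RNA was taken from unsorted fresh tumors although the labels name squamous carcinoma cells. A difference between these bulk libraries cannot tell fewer cells of a type from less RNA in each cell.

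Glucose enters cells through the GLUT carriers, of which GLUT1 (*Slc2a1*) serves most proliferating cells, GLUT3 (*Slc2a3*) has a high affinity for glucose, and GLUT4 (*Slc2a4*) is the insulin-regulated carrier of striated muscle and fat. Inside the cell glucose 6-phosphate is either burned or, through phosphoglucomutase and glycogen synthase, stored as glycogen, which a phosphorylase later opens again. The phosphorylases exist as a muscle form (*Pygm*), a liver form (*Pygl*) and a brain form (*Pygb*), and *Pygm* is a textbook gene of skeletal muscle. The study asked whether lactate dehydrogenase activity is needed for these tumors, and it also measured their glucose use. It reported less uptake of a glucose analogue and lower glycolytic metabolites in *Ldha*-null tumors. Its RNA-seq comparison found no significant expression changes with loss of *Ldha*. The carriers and glycogen enzymes are followed here as transcripts only, which do not measure uptake.

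The libraries held 12969508 to 17694201 counted fragments, and 3 of them stood apart in tissue content. The summed level of 12 skeletal muscle genes was 132149 CPM (counts scaled to library size), or 13.2% of all counts, in the library labelled *Ldha*-null 1. It was 47.0 to 267 CPM in the other 9, where *Tnnc2* was at 0 in most. The summed level of 10 keratinocyte genes was 59318 CPM in the library labelled *Ldha*-null 3 and 59505 CPM in wild-type library 5, against 460 to 9106 CPM in the other 8. The summed level of 5 erythroid genes was 42093 CPM in the library labelled *Ldha*-null 3 and at most 1463 CPM elsewhere. For *Ldha* itself, the FPKM (fragments per kilobase, scaled to library size) of the 5 LDHA-/- libraries were 1883, 246, 1288, 542 and 324, those of the wild-type libraries were 390, 340, 345, 589 and 2824, and its whole-gene level thus overlapped between the labels and did not separate them. Exons were not analysed here, and a transcript with some exons removed would still be counted. For this reason the groups are called null-labelled and wild-type below, and every direction is a direction between labels.

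Of the 10 genes, 0 passed the test between the labels, where edgeR also called 0 of 15176 genes (0%). Without adjustment, 2 of the 10 (*Slc2a4* and *Pygm*) had a p under 0.05, as did 3.96% of all genes. Both were higher in the null-labelled tumors, the direction of 3.56% of all genes, and 0 of the 10 were lower, against 0.395%. Without null-labelled tumor 1 the count was 0 of 10 against 1.25% of all genes, and over 7 tumors, with null-labelled tumors 1 and 3 and wild-type tumor 5 set aside, 0 of 10 against 1.59%. DESeq2 called 1 gene of all those tested, *G0s2*, and 0 of the 10. It gave no p, adjusted or unadjusted, for *Slc2a4*, *Pgm2*, *Gys1*, *Gbe1* and *Pygm*, so its lack of calls does not cover these genes. The exact permutation test of each gene, adjusted over all genes tested, gave 0.999 for each of the 10, and the smallest unadjusted p that 252 assignments allow is 0.00794. For 0 of the 10 genes did the values of 1 label lie wholly above those of the other, against 0.185% of all genes.

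The upstream sequences of the genes are shown for 4 of them, because *Pygm*, *Gys1* and *Pgm2* shared 1 high tumor and *Slc2a1* did not. The sequences are RefSeq promoters of the build GRCm38.p6, 250 bases before to 50 bases after the annotated start, and 8 of the 10 genes had one. Capitals mark 3 motifs searched on both strands: CAGCTG, an E-box that muscle regulatory factors can bind; ACGTG, the core of the hypoxia response element; and TATAAA, the TATA box. A motif on the other strand appears as its reverse complement, and positions give the first base of a match with the start as 1.
Pygm, chr19:6384158-6384457, plus strand: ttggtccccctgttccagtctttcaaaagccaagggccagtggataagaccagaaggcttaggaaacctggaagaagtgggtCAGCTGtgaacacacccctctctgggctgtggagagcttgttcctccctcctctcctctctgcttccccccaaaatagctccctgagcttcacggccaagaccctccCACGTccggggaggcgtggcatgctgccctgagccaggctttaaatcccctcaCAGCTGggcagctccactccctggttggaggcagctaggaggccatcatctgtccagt
Gys1, chr7:45434589-45434888, plus strand: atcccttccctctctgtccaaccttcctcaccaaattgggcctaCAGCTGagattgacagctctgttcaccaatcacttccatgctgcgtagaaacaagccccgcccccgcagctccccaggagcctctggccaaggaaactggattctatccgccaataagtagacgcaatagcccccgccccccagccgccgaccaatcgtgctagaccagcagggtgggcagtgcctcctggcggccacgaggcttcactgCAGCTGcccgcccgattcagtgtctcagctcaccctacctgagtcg
Pgm2, chr4:99929201-99929500, plus strand: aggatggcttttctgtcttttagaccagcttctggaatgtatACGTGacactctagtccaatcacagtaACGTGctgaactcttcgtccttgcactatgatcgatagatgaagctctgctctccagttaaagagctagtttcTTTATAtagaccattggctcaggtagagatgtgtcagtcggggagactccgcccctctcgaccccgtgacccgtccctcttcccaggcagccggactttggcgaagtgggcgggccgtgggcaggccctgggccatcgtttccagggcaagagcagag
Slc2a1, chr4:119108495-119108794, plus strand: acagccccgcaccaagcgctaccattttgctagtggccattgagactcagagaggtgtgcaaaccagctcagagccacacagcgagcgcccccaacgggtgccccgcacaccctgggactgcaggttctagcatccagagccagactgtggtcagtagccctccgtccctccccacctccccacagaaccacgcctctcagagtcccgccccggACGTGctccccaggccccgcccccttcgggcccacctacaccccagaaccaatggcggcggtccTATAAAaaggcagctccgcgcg
CAGCTG was found in *Pygm*, at -168 and -8 from the start, and in *Gys1*, at -206 and 5, and thus in 2 of the 8 promoters, while 16.3% of all 32851 promoters of this length held it. ACGTG was found in 6 of the 8 (*Slc2a1*, *Pgm1*, *Pgm2*, *Pygm*, *Pygl* and *Pygb*), against 19.6% of all promoters, and lay at -36 in *Slc2a1* and at -61 in *Pygm*. TATAAA was found in *Slc2a1* at 29, downstream of the annotated start, and in *Pgm2* at -108, against 13.6% of all promoters. *Gbe1* held 0 of the 3 motifs. Such matches describe the letters of the window and do not show a bound site.

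*Slc2a1* (ENSMUSG00000028645, chromosome 4, 119108711 to 119137330 of mm10, plus strand) encodes GLUT1, the basal glucose carrier. Its level was 43.8, 70.5, 240, 139 and 73.7 FPKM in null-labelled tumors 1 to 5, against 72.8, 59.5, 123, 137 and 484 FPKM in wild-type tumors 1 to 5, the order kept for the genes below. The groups overlapped, and the highest tumor of each label was the keratinocyte-rich one, wild-type tumor 5 and null-labelled tumor 3, the latter also apart in its erythroid genes. The means ± SEM were 113 ± 35.3 and 175 ± 78.6 FPKM (n = 5 each). The log2 fold change between the labels was -0.55 (95% interval -2.02 to 0.93, edgeR adjusted p = 0.999), and exact permutation of the labels, two-sided, gave p = 0.722. Wild-type tumor 5 set the sign, since the log2 fold change was 0.41 without it. Over the 7 tumors, *Slc2a1* ranged only from 59.5 to 139 FPKM and the log2 fold change was -0.13 (95% interval -0.99 to 0.73).

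**Figure D1:**
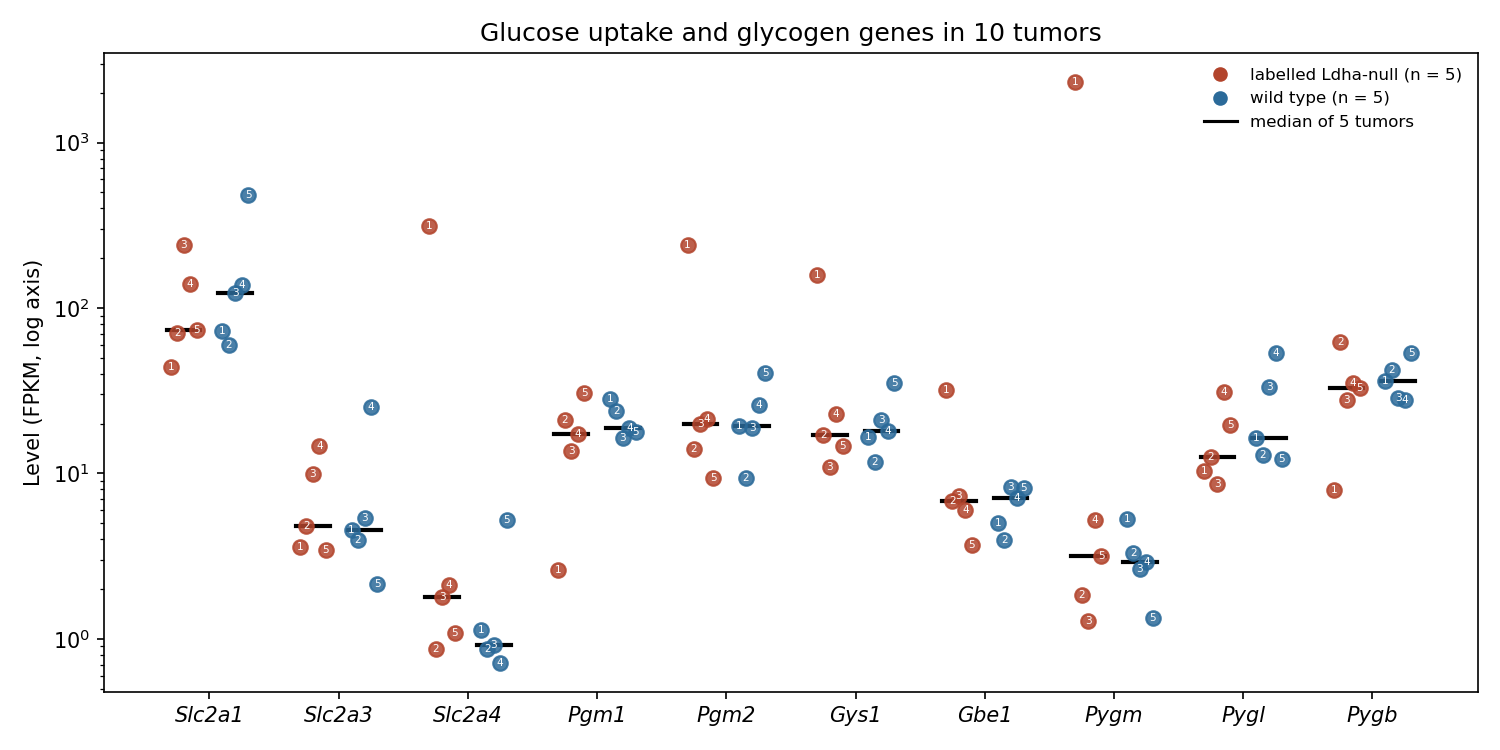
FPKM of the 10 genes (log axis) in each tumor, with null-labelled tumors in red, wild-type tumors in blue, the tumor number inside each point and a bar at the median of 5 tumors. Null-labelled tumor 1 lies far above the other 9 for *Slc2a4*, *Pgm2*, *Gys1*, *Gbe1* and *Pygm* and below them for *Slc2a1*, *Pgm1* and *Pygb*, while for all 10 genes the labels overlap.

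Genes induced by low oxygen and genes of keratinocytes were set beside *Slc2a1*, since hypoxia is a known inducer of GLUT1. The summed level of 10 hypoxia-induced genes was highest in wild-type tumor 5, at 893 CPM, followed by null-labelled tumors 1, 3 and 4, at 705, 630 and 603 CPM, and was 328 to 538 CPM in the other 6. *Slc2a1* was among the 4 highest in wild-type tumor 5 and null-labelled tumors 3 and 4 but not in null-labelled tumor 1, where it ranked the 10th of 10 by FPKM and the 6th of 10 by CPM scaled with TMM. In null-labelled tumor 1 *Bnip3* of the hypoxia list was at 527 FPKM against 39.0 to 131 FPKM elsewhere, while *Car9*, *Ndrg1*, *Adm*, *P4ha1* and *Kdm3a* of the same list were the lowest of the 10 tumors there by FPKM. The part of hypoxia and of keratinocyte or erythroid content in these levels was not tested. The 3 genes whose pattern over the 10 tumors lay nearest to that of *Slc2a1* were *Pfkl*, the liver-type phosphofructokinase, *Iffo2* and *Kctd11*, at root mean square distances of 0.28, 0.35 and 0.35 on the log2 CPM scale, where *Slc2a1* itself had an SD of 1.05. *Pfkl* was at 33.7 FPKM in null-labelled tumor 1, 169 FPKM in null-labelled tumor 3 and 349 FPKM in wild-type tumor 5.

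*Slc2a3* (ENSMUSG00000003153, chromosome 6, 122727809 to 122801640, minus strand) encodes GLUT3. It was listed at 3.59, 4.79, 9.95, 14.6 and 3.43 FPKM in null-labelled tumors 1 to 5, against 4.57, 3.98, 5.40, 25.3 and 2.16 FPKM in the wild type. The tumors numbered 4 were the highest of their labels, and wild-type tumor 5, where *Slc2a1* peaked, was the lowest of all. The means ± SEM were 7.27 ± 2.18 and 8.28 ± 4.28 FPKM. Its log2 fold change between the labels was -0.05 (95% interval -1.56 to 1.45, edgeR adjusted p = 0.999; exact permutation p = 0.706), which became 1.02 without wild-type tumor 4. Its nearest genes were *Tm6sf2*, *Cyr61* (a matricellular target of the YAP pathway) and *Ephx1*, at distances of 0.65, 0.65 and 0.65 against its own SD of 1.07, so no gene followed it as closely as *Pfkl* followed *Slc2a1*.

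*Slc2a4* (ENSMUSG00000018566, chromosome 11, 69942539 to 69948188, minus strand) encodes GLUT4. It was at 313, 0.864, 1.78, 2.11 and 1.08 FPKM in null-labelled tumors 1 to 5, against 1.13, 0.863, 0.920, 0.716 and 5.22 FPKM in the wild type. A single tumor held nearly all of it, at 288-fold the median of the others, and wild-type tumor 5 stood next. Outside null-labelled tumor 1 its levels rested on 16 to 105 counts. Between the labels its log2 fold change was 5.95 (95% interval 1.39 to 10.5, edgeR adjusted p = 0.999), the exact permutation p was 0.468, and without null-labelled tumor 1 the log2 fold change was -0.31 (95% interval -1.89 to 1.26). Summed adipocyte markers were 2027 CPM in null-labelled tumor 1, 644 CPM in null-labelled tumor 3, 612 CPM in wild-type tumor 5 and 11.3 to 157 CPM in the other 7, with *Plin1*, *Cidec* and *Lep* at 0 in some tumors. In null-labelled tumor 3 and wild-type tumor 5 that sum came mostly from *Fabp4*, at 1006 and 950 FPKM, while *Adipoq*, the defining adipokine, was at 0.363 and 0.656 FPKM there, below its 5.49 FPKM in null-labelled tumor 5 and 5.28 FPKM in wild-type tumor 2. In null-labelled tumor 1 *Adipoq* was at 107 FPKM. The part of muscle or fat tissue in the *Slc2a4* level was not tested.

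The 3 carriers differed in their share of the summed transporter FPKM. *Slc2a1* made up 84.0% to 98.5% of it in 9 tumors and 12.2% in null-labelled tumor 1, where *Slc2a4* took 86.9%. *Slc2a1* exceeded *Slc2a3* in 10 of 10 tumors, by 5.41-fold in wild-type tumor 4 to 224-fold in wild-type tumor 5. The summed level of the 3 was 360 FPKM in null-labelled tumor 1 and 64.4 to 492 FPKM in the others, so the tumor that stood apart in composition lay inside the range in total.

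**Figure D2:**
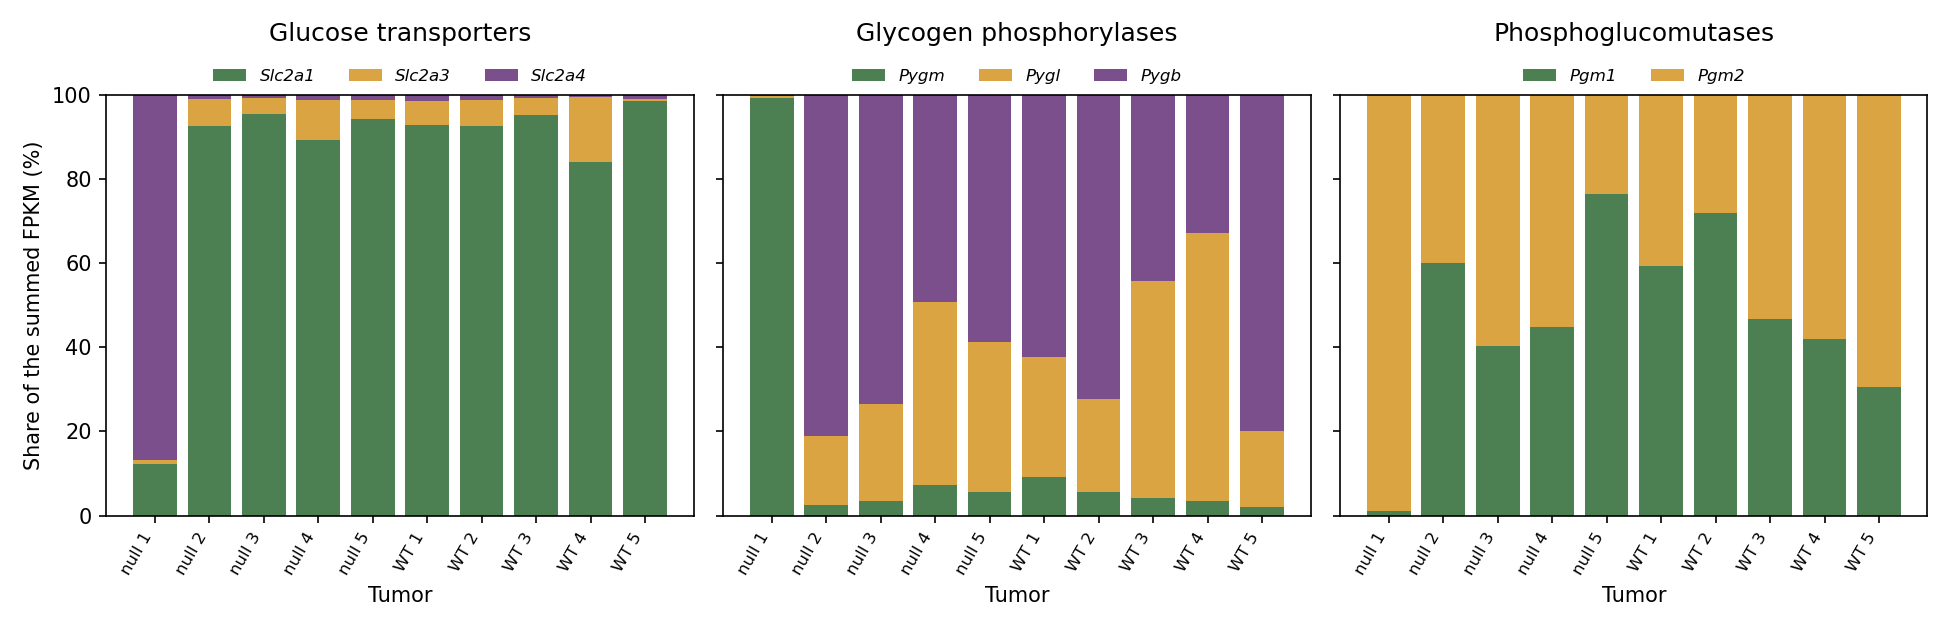
Share of each gene in the summed FPKM of its family (%, stacked to 100) in each of the 10 tumors, for glucose transporters, glycogen phosphorylases and phosphoglucomutases. Null-labelled tumor 1 is made up of *Slc2a4* (86.9%), *Pygm* (99.2%) and *Pgm2* (98.9%), whereas *Slc2a1* holds at least 84.0% and *Pygm* at most 9.20% in each of the other 9.

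Phosphoglucomutase interconverts glucose 1-phosphate and glucose 6-phosphate and so joins glycogen to glycolysis. The symbols of its genes need care, because *Pgm1* of the tables (ENSMUSG00000029171, chromosome 5, 64092936 to 64128355) is named *Pgm2* by RefSeq, and *Pgm2* of the tables (ENSMUSG00000025791, chromosome 4, 99929414 to 99987294) is named *Pgm1*. The tables' symbols are used here. *Pgm1* was at 2.62, 21.1, 13.6, 17.4 and 30.6 FPKM in null-labelled tumors, against 28.4, 24.0, 16.4, 18.8 and 17.9 FPKM in the wild type. It lay within a narrow range apart from null-labelled tumor 1, the lowest of the 10. Its log2 fold change was -0.30 (95% interval -1.13 to 0.54, edgeR adjusted p = 0.999; exact permutation p = 0.413), and -0.06 without that tumor (95% interval -0.57 to 0.44), the narrowest interval of the 10 genes in that fit.

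*Pgm2* of the tables went the other way in the same tumor. Its level was 239, 14.1, 20.0, 21.3 and 9.44 FPKM in null-labelled tumors, against 19.4, 9.35, 18.8, 25.9 and 40.7 FPKM in the wild type. The null-labelled group was thus led by 1 tumor and otherwise lay among the wild-type values. Its log2 fold change was 2.10 (95% interval -0.27 to 4.47, edgeR adjusted p = 0.999; exact permutation p = 0.778) and -0.50 without null-labelled tumor 1 (95% interval -1.53 to 0.53). *Pgm1* made up 30.5% to 76.4% of the summed FPKM of the pair in 9 tumors and 1.08% in null-labelled tumor 1. The sum was 242 FPKM there and 33.3 to 58.5 FPKM in the others. These are shares of transcripts, and the enzyme activity of either gene's product was not measured. They therefore do not show how far each product carries out the phosphoglucomutase reaction.

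*Gys1* (ENSMUSG00000003865, chromosome 7, 45434844 to 45456619, plus strand) encodes the glycogen synthase of muscle and most other tissues. It was at 158, 17.0, 10.9, 22.9 and 14.6 FPKM in null-labelled tumors, against 16.7, 11.8, 20.9, 18.0 and 35.3 FPKM in the wild type. Apart from null-labelled tumor 1, the tumors lay within 10.9 to 35.3 FPKM with the labels intermixed. For the label contrast, log2 fold change was 1.74 (95% interval -0.29 to 3.77, edgeR adjusted p = 0.999; exact permutation p = 0.754) and -0.38 without null-labelled tumor 1 (95% interval -1.18 to 0.41).

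*Gbe1* (ENSMUSG00000022707, chromosome 16, 70313949 to 70569716, plus strand) encodes the branching enzyme, which adds the side chains of glycogen. Its level was 31.8, 6.78, 7.32, 5.98 and 3.68 FPKM in null-labelled tumors, against 5.04, 3.97, 8.24, 7.14 and 8.18 FPKM in the wild type. Apart from null-labelled tumor 1 the tumors differed by at most 2.24-fold. In the label contrast the log2 fold change was 1.32 (95% interval -0.31 to 2.94, edgeR adjusted p = 0.999; exact permutation p = 0.643) and -0.12 without that tumor (95% interval -0.92 to 0.68).

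*Pygm* (ENSMUSG00000032648, chromosome 19, 6384399 to 6398459, plus strand) encodes muscle phosphorylase. It was listed at 2320, 1.85, 1.28, 5.20 and 3.18 FPKM in null-labelled tumors, against 5.30, 3.29, 2.65, 2.90 and 1.33 FPKM in the wild type. Null-labelled tumor 1 held 66882 counts of it against 32 to 151 in the others, or 800-fold their median level. The other 4 null-labelled tumors, at 1.28 to 5.20 FPKM, lay in nearly the same range as the 5 wild-type tumors. Skeletal muscle markers made up 13.2% of all counts in null-labelled tumor 1, and their part in the *Pygm* level was not tested. The log2 fold change of 8.13 (95% interval 2.53 to 13.7, edgeR adjusted p = 0.999) became -0.13 without that tumor (95% interval -1.16 to 0.90), and the exact permutation test over all tumors gave p = 0.635. Its nearest genes in pattern were *Tnni2*, a fast skeletal troponin, *Apobec2* and *Cacna1s*, the calcium channel of the muscle T-tubule, at distances of 0.41, 0.42 and 0.45 against an SD of 3.40. Of these, *Tnni2* was also in the list of muscle markers. *Tnnc2* of that list was at only 1.96 FPKM in null-labelled tumor 1, against 0 to 0.121 FPKM in the others. The nearest genes of *Slc2a4* were *Synm*, an intermediate filament of muscle, *Sox6* and *Jph1*, at distances of 0.47, 0.64 and 0.71 against an SD of 2.87. Likeness to these 2 genes rests mostly on null-labelled tumor 1. There log2 CPM was 12.7 for *Pygm*, against 1.29 to 2.99 elsewhere, and 9.50 for *Slc2a4*, against 0.0745 to 2.91.

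*Pygl* (ENSMUSG00000021069, chromosome 12, 70190811 to 70231488, minus strand) encodes liver phosphorylase. It was at 10.3, 12.6, 8.69, 31.1 and 19.7 FPKM in null-labelled tumors, against 16.4, 12.9, 33.5, 53.3 and 12.2 FPKM in the wild type. The means ± SEM were 16.5 ± 4.11 and 25.7 ± 7.92 FPKM, and the groups overlapped over most of their range. The log2 fold change was -0.54 (95% interval -1.56 to 0.49, edgeR adjusted p = 0.999; exact permutation p = 0.460), and it stayed below 0 with any single tumor left out, from -0.81 to -0.06, the latter without wild-type tumor 4. Like *Slc2a3*, *Pygl* was highest in wild-type tumor 4, where the summed level of 8 mesenchymal genes was also highest, at 28242 CPM, and it was lowest in null-labelled tumors 1 and 3, the 2 tumors with the lowest mesenchymal sums, at 783 and 6668 CPM. By CPM scaled with TMM, however, null-labelled tumor 1 ranked the 4th of 10 for *Pygl* and for *Slc2a3*, so its low place holds on the FPKM scale alone. The part of mesenchymal content in the level of *Pygl* was not tested. Its nearest genes were *Epn2*, *Tab1* and *Kansl2*, at distances of 0.27, 0.32 and 0.34 against an SD of 0.76.

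*Pygb* (ENSMUSG00000033059, chromosome 2, 150786735 to 150831758, plus strand) encodes brain phosphorylase, a form found widely outside muscle and liver. Its level was 7.98, 62.3, 27.8, 35.3 and 32.7 FPKM in null-labelled tumors, against 36.0, 42.5, 28.6, 27.6 and 53.6 FPKM in the wild type. Null-labelled tumors held both the lowest and the highest value. The log2 fold change was -0.16 (95% interval -0.95 to 0.64, edgeR adjusted p = 0.999; exact permutation p = 0.603), and 0.04 without null-labelled tumor 1 (95% interval -0.62 to 0.69).

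The phosphorylase total was shared mainly by *Pygb* and *Pygl*. Outside null-labelled tumor 1, *Pygb* made up 32.9% to 81.2% of it, *Pygl* 16.4% to 63.6% and *Pygm* 1.98% to 9.20%, while the sum stayed within 37.8 to 83.8 FPKM. *Pygb* exceeded *Pygl* in 7 of 10 tumors, by 4.95-fold in null-labelled tumor 2, whereas *Pygl* led in null-labelled tumor 1 and in wild-type tumors 3 and 4. With the gene length listed in the tables in place of the one behind the FPKM, *Pygb* led in 6 tumors, by at most 3.37-fold, and *Pygl* led in null-labelled tumor 4 as well. In null-labelled tumor 1 the sum was 2338 FPKM, of which *Pygm* was 99.2%. Over all 10 tumors, the median *Pygb* share was 58.8% in null-labelled and 62.4% in wild-type tumors, a gap smaller than the SD of 25.0 percentage points. The null-labelled median includes null-labelled tumor 1, where *Pygb* held 0.341%, so the direction of this gap rests on that tumor.

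**Figure D3:**
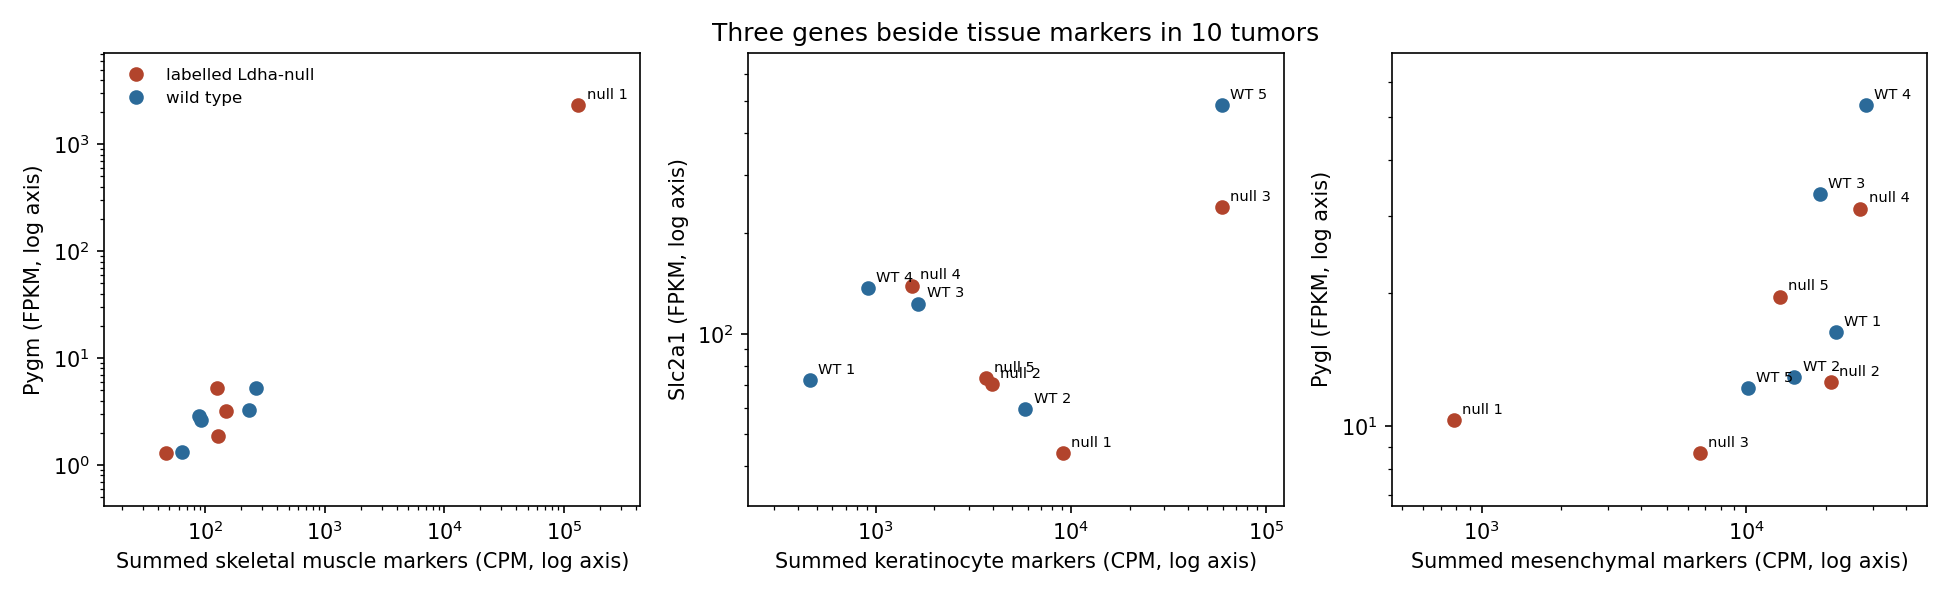
*Pygm*, *Slc2a1* and *Pygl* (FPKM, log axis) against the summed CPM of skeletal muscle, keratinocyte and mesenchymal markers (log axis) in the 10 tumors, null-labelled in red and wild type in blue. Null-labelled tumor 1 stands alone in the muscle panel at 2320 FPKM and 132149 CPM, and wild-type tumor 5 and null-labelled tumor 3 lie at the upper right of the keratinocyte panel.

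Ordered by median FPKM, a level per length, *Slc2a1* came first at 98.5, followed by *Pygb* at 34.0, *Pgm2* at 19.7, *Pgm1* at 18.3, *Gys1* at 17.5, *Pygl* at 14.7, *Gbe1* at 6.96, *Slc2a3* at 4.68, *Pygm* at 3.04 and *Slc2a4* at 1.11 FPKM. *Slc2a1* lay above *Pygb* in 10 of 10 tumors, and *Pygb* above *Pgm2* and *Pygl* above *Gbe1* in 9. By these FPKM, *Pgm2*, *Pgm1*, *Gys1* and *Pygl* kept this order in only 5 or 6 tumors for each neighbouring pair. The deposited FPKM rest on shorter gene lengths than those listed in the tables, such as 1339 against 3909 bases for *Pygb* and 2447 against 2523 bases for *Pgm2*. With the listed length, *Pygb* lay above *Pgm2* in only 3 tumors and *Slc2a3* above *Pygm* in 4. *Pgm2* then lay above *Pgm1*, and *Pgm1* above *Gys1*, in 8 tumors each. These places in the order thus depend on the length used. Comparisons between tumors are not touched by it, because each length was the same in every tumor. *Slc2a1*, *Slc2a3*, *Pgm2*, *Gys1* and *Pygl* overlap another annotated gene. For *Gys1* it is *Ruvbl2* on the other strand, and for *Slc2a3* it is *Gm4482* on the same strand. Whether the counting used strand is not given, so how fragments of stretches shared across strands were treated is not known here. The overlaps are between annotated gene spans, and whether exons are shared was not examined.

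The labels gave 5 positive and 5 negative log2 fold changes among the 10 genes, where 52.8% of all genes were positive. Without null-labelled tumor 1 the split was 1 positive and 9 negative, against 47.7% positive among all genes, and over the 7 tumors it was 3 and 7. With all tumors, the 95% interval lay within a 2-fold change either way for 1 gene of the 10 and was over 4-fold wide for 8. A modest difference between the labels was therefore not detectable at this spread for most of these genes.

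**Figure D4:**
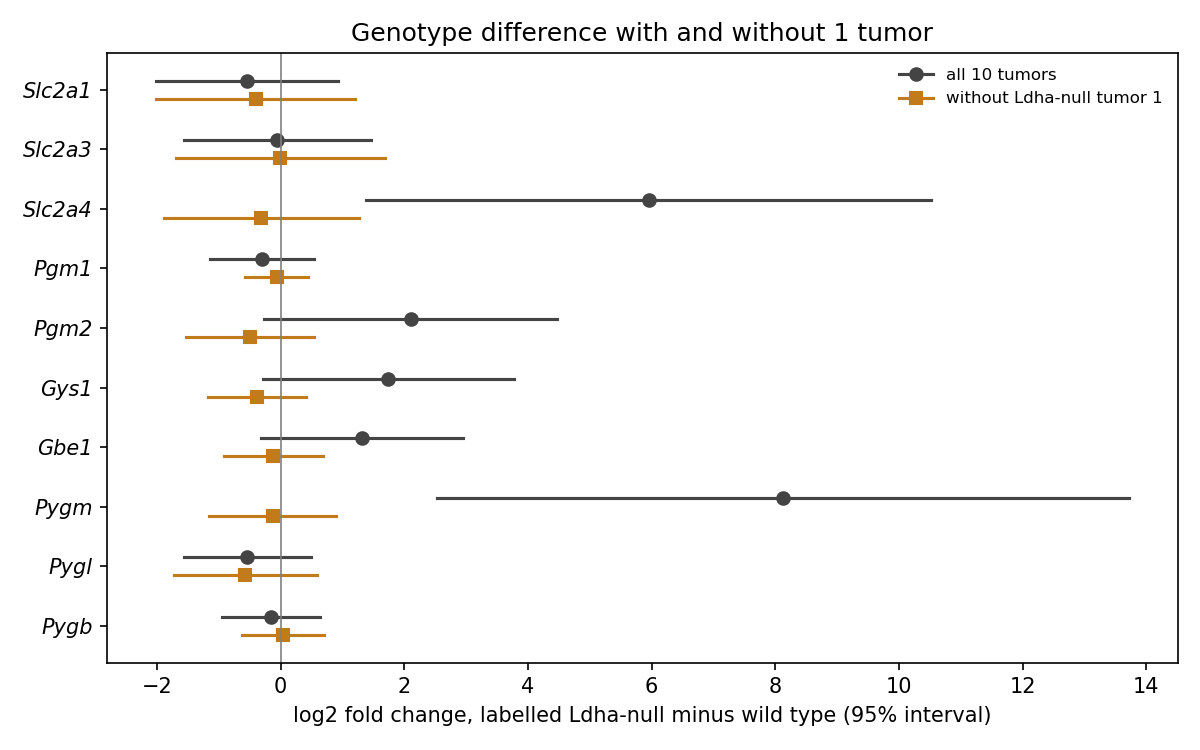
Log2 fold change between null-labelled and wild-type tumors with its 95% interval for the 10 genes, from all 10 tumors (grey circles) and without null-labelled tumor 1 (orange squares). The values of *Slc2a4*, *Pgm2*, *Gys1*, *Gbe1* and *Pygm* go from 1.32 to 8.13 with all tumors to -0.50 to -0.12 without that tumor.

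Null-labelled tumor 1 was the highest of the 10 tumors for 5 of the genes by CPM scaled with TMM, each over 4-fold above the median of the others, and the lowest for 2, *Pgm1* and *Pygb*. Of all genes tested, 8.65% were highest in that tumor and over 4-fold above the others, 26.9% were highest and 25.2% lowest there, and 8.82% were lowest and over 4-fold below the others, as was *Pgm1* of the 10. By unscaled FPKM the tumor was highest for the same 5 genes and lowest for 3, with *Slc2a1* added. The TMM factor of this tumor was 0.589, against 0.881 to 1.20 in the others. Its muscle markers stood at 132149 CPM, against 47.0 to 267 CPM in the others. Wild-type tumor 5, which ranked 2 of 10 for *Slc2a4*, *Pgm2*, *Gys1* and *Gbe1* by CPM scaled with TMM, held 64.1 CPM of them. Whether the muscle markers account for the 5 high genes was not tested.

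Of 47 further genes of glucose and glycogen handling, 38 had enough counts to be tested and 0 passed. Without adjustment 9 had a p under 0.05, against 3.96% of all genes, and the log2 fold change was positive for 28 and negative for 10, against 52.8% positive among all genes, with a median of 0.54 against 0.02 for all genes tested. Without null-labelled tumor 1, 0 of them had a p under 0.05 (1.25% of all genes), 21 were positive and 17 negative (47.7% of all genes positive), and the median was 0.05. Null-labelled tumor 1 was the highest of the tumors for 20 of the 38 by CPM scaled with TMM, against 26.9% of all genes. For 14 of them it was over 4-fold above the median of the others, against 8.65% of all genes. Skeletal muscle markers were high in the same tumor, as given above, and their part in these levels was not tested.

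Of these 9 genes, 8 are described, which span the synthesis, breakdown and control of glycogen and the transport of glucose 6-phosphate. In synthesis, *Gyg*, glycogenin, the protein primer of glycogen, stood at 205 FPKM in null-labelled tumor 1 against 5.86 to 23.0 FPKM elsewhere, and *Ugp2*, which makes UDP-glucose, at 277 against 19.9 to 38.2 FPKM. In the group of debranching and lysosomal breakdown, the glycogen-binding protein *Stbd1* was at 35.0 against 1.10 to 6.55 FPKM. *Epm2a* of the same group, laforin, a glycogen phosphatase, was at 25.8 against 0.463 to 1.77 FPKM. All of these values in null-labelled tumor 1 lay above the full range of the others.

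Regulators of glycogen were among them. The phosphorylase kinase subunits *Phka1*, the muscle alpha form, and *Phkb* were at 65.0 against 0.820 to 2.77 FPKM and at 225 against 10.2 to 23.1 FPKM. *Ppp1r3c*, which brings protein phosphatase 1 to glycogen, was at 197 FPKM against 0.0489 to 0.624 FPKM, with a log2 fold change of 7.76 between the labels (95% interval 2.46 to 13.1, edgeR adjusted p = 0.999; exact permutation p = 0.540) that was 0.25 without null-labelled tumor 1 (95% interval -1.06 to 1.55). Outside these regulators, the glucose 6-phosphate carrier of the endoplasmic reticulum, *Slc37a4*, was at 24.6 against 3.59 to 7.68 FPKM. Of the 9 genes without enough counts, *Phkg1* and *Ppp1r3a*, the muscle forms of a kinase subunit and of a targeting subunit, chosen here after their values were seen, were at 185 and 55.8 FPKM in null-labelled tumor 1 and at most 1.50 and 0.0596 FPKM elsewhere.

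**Figure D5:**
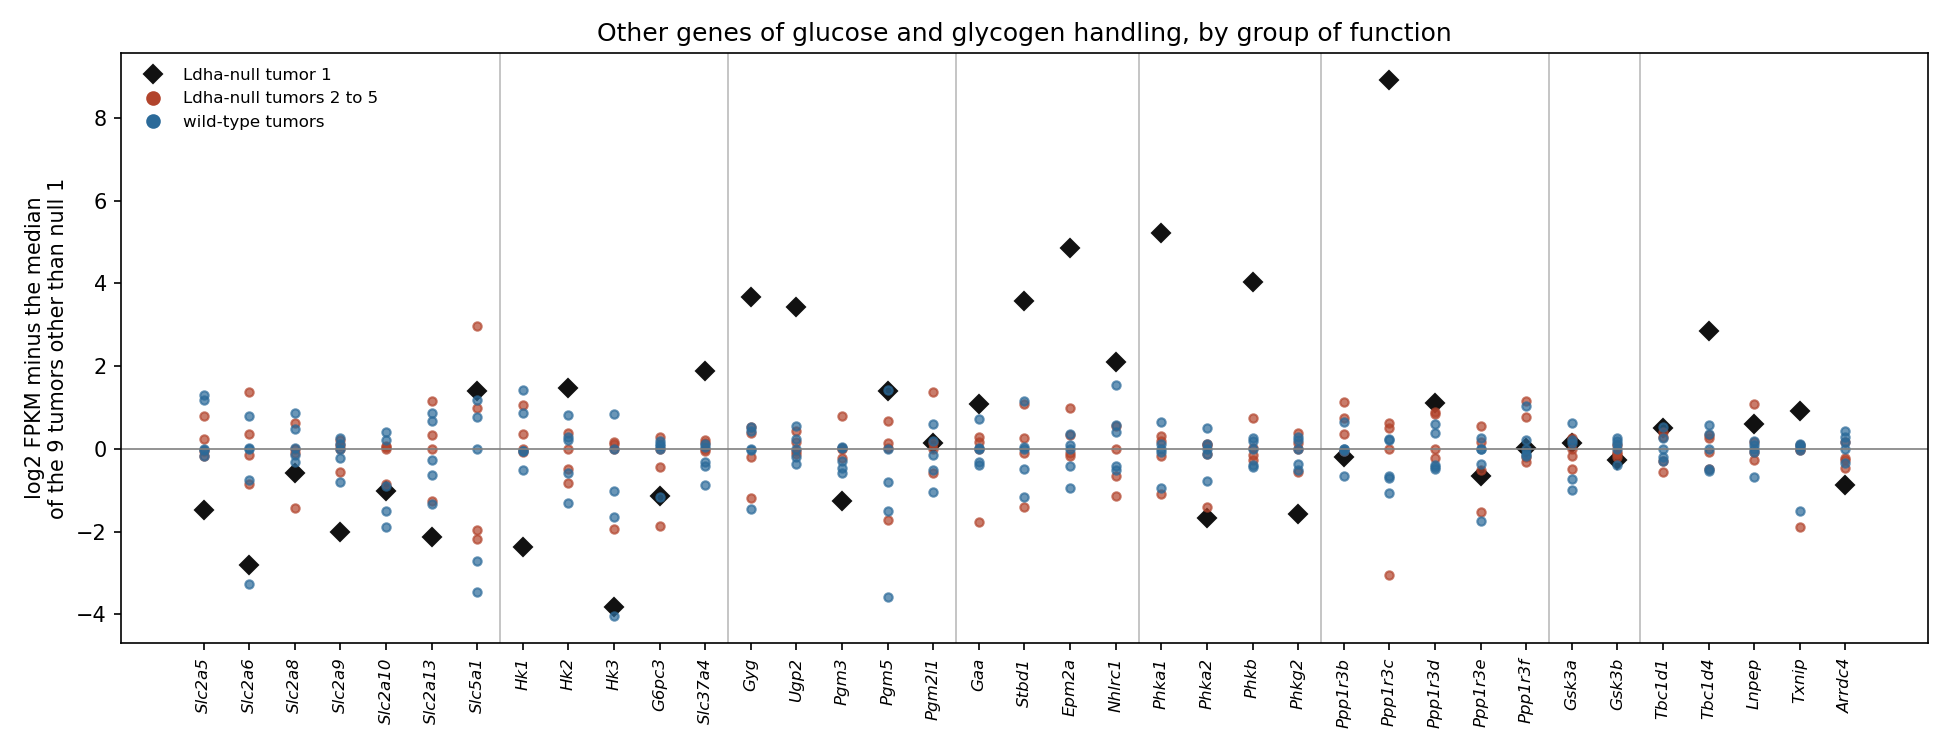
Log2 FPKM of tested genes of glucose and glycogen handling in each tumor, as the difference from the median of the 9 tumors other than null-labelled tumor 1, which is drawn as black diamonds; grey lines part groups of function. The diamonds stand highest for *Ppp1r3c*, *Phka1*, *Epm2a* and *Phkb*, and the labels are intermixed among the other 9 tumors.

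The remaining genes that were the most abundant of their groups did not all stand high in that tumor by FPKM. *Hk1*, the widely expressed hexokinase, was at 12.0 FPKM in null-labelled tumor 1 against 43.2 to 164 FPKM elsewhere. The lysosomal glucosidase *Gaa* was at 129 FPKM there and at 17.9 to 99.6 FPKM elsewhere, and the synthase kinase *Gsk3b* at 24.6 against 22.9 to 36.0 FPKM. The intracellular carrier *Slc2a8* was at 11.4 against 6.41 to 31.3 FPKM. By CPM scaled with TMM, however, *Gsk3b* was the highest in that tumor, at a log2 CPM 0.56 above the median of the others. *Slc2a8* lay 0.32 above that median on this scale, while *Hk1* was still the lowest there. *Txnip*, an arrestin-related protein that removes GLUT1 from the cell surface, was at 37.2 FPKM in null-labelled tumor 3 and 48.9 FPKM in wild-type tumor 5, the 2 tumors with the most *Slc2a1*, against 135 to 263 FPKM in the remaining 8. These 2 tumors were also the keratinocyte-rich ones, and a link between the levels of *Txnip* and *Slc2a1* was not tested. For *Txnip* the log2 fold change between the labels was 0.58 (95% interval -0.63 to 1.79, edgeR adjusted p = 0.999), and it was -0.16 without null-labelled tumor 1 (95% interval -1.02 to 0.69).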

How the data were processed

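RNA was profiled in 10 mouse tumors, 5 for each genotype label. Unsorted fresh tumors gave the RNA, and poly(A) libraries were read on a HiSeq2500. Per the submitters' processing notes, bases were called with CASAVA 1.8 and reads were aligned to mm10 with TopHat2. The deposited counts are whole fragments per gene from HTSeq (union mode), without normalization. The FPKM values were computed by the authors from these counts and are deposited beside them, with a gene length that differs from the listed one for many genes. Not given in the sources used here are the versions of TopHat2 and HTSeq, the annotation release and any use of strand.

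Genes were kept by filterByExpr (minimum count 10, minimum total 15), which left 15176 of 35275, scaled by TMM and tested with the quasi-likelihood test of edgeR 4.0.16 in R 4.3.3, with no covariate, Benjamini-Hochberg adjustment over all genes and a threshold of 0.05. Intervals are 95% intervals. Each gene's log2 CPM (prior count 2) was further tested by exact two-sided permutation of the labels over 252 assignments. Likeness in pattern was the root mean square distance of log2 CPM centred on each gene's mean. Shares are shares of FPKM within a family. Depth was 12969508 to 17694201 counts per tumor, and the biological coefficient of variation was 63.4%. Counting error was far smaller than the spread between tumors, and no 2 libraries of a label agreed within sampling noise.

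The 10 genes and the lists of related genes and of tissue markers were chosen with earlier results of these data known. All 10 genes are described. Of the related genes, those with an unadjusted p under 0.05 and the most abundant of each group of function were named, and for 5 genes the 3 nearest in pattern. Alternatives were DESeq2 1.42.0, other scaling factors and filters, limma 3.58.1 with voom or on log2(FPKM + 0.1), the replicate number as a block, keratinocyte markers as a covariate, and the omission of each tumor or of 3 tumors. The test scripts were tested on simulated data. Reads and exons were not analysed here, and 1 gene that meets the rule for naming is not reported here.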

Additional observations from a re-analysis of the deposited data

Results flagged for a closer look

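In 5 of the 20 sets of 5 tumors (10 genes, 2 labels), 1 tumor stood apart, its gap to the nearest other tumor on the log2 CPM scale exceeding 0.71 of the range of its label. Chance alone would set apart about 1 set in 20 if the sets were independent. They share the same 10 tumors, so that rate is no measure of chance here. Null-labelled tumor 1 was the tumor concerned in 4 of them, with *Slc2a4* at 313 FPKM (the other null-labelled tumors 0.864 to 2.11), *Pgm2* at 239 FPKM (9.44 to 21.3), *Gys1* at 158 FPKM (10.9 to 22.9) and *Pygm* at 2320 FPKM (1.28 to 5.20). The summed skeletal muscle markers were 132149 CPM in that tumor and at most 267 CPM elsewhere, and their part in these levels was not tested. The fifth was *Slc2a4* in wild-type tumor 5, at 5.22 FPKM, with the other wild-type tumors at 0.716 to 1.13 FPKM. Summed adipocyte markers were 612 CPM in wild-type tumor 5 and 11.3 to 92.1 CPM in the other wild-type tumors, but mostly as *Fabp4* (950 FPKM), with *Adipoq* at 0.656 FPKM there against 5.28 FPKM in wild-type tumor 2.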

How the results depend on the processing

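Under each of the alternatives, edgeR and limma fits called 0 genes of all those tested, 0 of the 10 genes and 0 of the related genes, and unadjusted p-values under 0.05 numbered 120 to 1308 over all genes. DESeq2 called 1 gene, *G0s2* (144 FPKM in null-labelled tumor 1, 0.824 to 18.5 FPKM elsewhere), with 489 unadjusted p-values under 0.05. Leaving out each tumor in turn gave 0 calls each time, and log2 fold changes of -1.10 to 0.41 for *Slc2a1*, -0.35 to 1.02 for *Slc2a3*, -0.31 to 6.95 for *Slc2a4*, -0.50 to 2.41 for *Pgm2*, -0.38 to 2.03 for *Gys1*, -0.12 to 1.58 for *Gbe1*, -0.13 to 8.45 for *Pygm* and -0.46 to 0.064 for *Pygb*. *Pgm1* and *Pygl* kept their sign throughout. With voom and sample weights, *Pgm2* was at -0.36, *Gys1* at -0.019, *Gbe1* at -0.20 and *Pygb* at 0.13. Over the 7 tumors, *Pgm2* was at -0.37, *Gbe1* at -0.22, *Pygm* at -0.12 and *Pygb* at 0.31. *Slc2a3* was at 0.34 with keratinocyte markers as a covariate and at 0.13 on log2(FPKM + 0.1). That scale moved the median of all genes to -0.14 and the share of positive log2 fold changes from 52.8% to 36.0%. The cause of these turns was not tested. The other 89 of 100 values under these settings kept their sign, and none of the adjusted p-values passed. DESeq2 gave no p, adjusted or unadjusted, for 5 of the 10 genes, so its lack of calls does not cover them. It also gave none for related genes such as *Gyg*, *Ugp2*, *Phka1* and *Ppp1r3c*.

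The replicate numbers did not pair the tumors: deviations of same-numbered tumors correlated at -0.51 to 0.55, and 2 of 10 tumors correlated best with their own number. With the replicate block, 0 genes were called, 120 had an unadjusted p under 0.05, and *Slc2a3* was at 0.31. Shares computed from counts, or with the listed gene length (chosen after seeing the data), moved by less than 1 SD over the tumors. With 5 tumors a label and a coefficient of variation of 63.4%, precision was limited by the spread between tumors, and for *Slc2a4* outside null-labelled tumor 1 also by 16 to 105 counts.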
